A study of Capra hircus with 10 samples.

Results

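Back-splicing of APP, the gene of the amyloid precursor protein, gave 4 circular RNAs (circRNAs) among the 1327 circRNAs counted in preadipocytes (IMPA) and adipocytes (IMA) of goat intramuscular fat. They were found by the gene name of the deposited circRNA annotation, and each was joined by its circRNA name to the read counts of 10 libraries. APP was chosen for a rise of its linear reads in IMA, set against its junction reads. Every IMA to IMPA difference of APP below is therefore a description without a test. The 4 isoforms are circ_0000716, circ_0000719, circ_0000720 and circ_0000723. With 4 circRNAs APP stood at rank 14 of the 945 named host genes, and 24 host genes (2.54%) had at least 4.

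APP is a single-pass membrane protein made in most tissues, adipose tissue included. Its ectodomain is shed by alpha-secretases such as ADAM10, or it is cut by beta-secretase and then by gamma-secretase, which releases amyloid-beta peptides. A circRNA forms when a downstream splice donor is joined to an upstream splice acceptor of the same pre-mRNA, so it is counted beside the linear transcript of its host gene.

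The libraries held total RNA of cultured cells with wild-type genotype (WT in the labels), isolated from the intramuscular fat of the longissimus dorsi muscle of week-old male Jianzhou goats. IMPA were 5 libraries of cells taken at day 0, when the proliferation medium was replaced, and IMA were 5 libraries taken at day 3 of adipogenic induction with oleic acid. The goats were fewer than the libraries of a group, and which library came from which goat is not given in the sources used here, so the spread below is that between libraries and may be technical. Junction reads summed to 11421 to 15553 per IMPA library and 9622 to 12499 per IMA library, and non-junction reads over the 690 circRNAs with a value in every library summed to 177795 to 244354 and 128138 to 173047. In the study's mapping summary every IMA library also had fewer uniquely mapped reads than every IMPA library. The share of clean reads that mapped uniquely was lower in every IMA library too, while the clean reads overlapped between the groups.

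Cell identity could be checked only through genes with a circRNA. Of 14 adipocyte markers only PLIN2, a lipid droplet coat protein, had circRNAs, and its normalised non-junction reads rose from 3973 ± 1048 CPM (counts scaled to a common library size, SD, n = 5) to 15254 ± 2419 CPM (n = 5, edgeR adjusted p = 6.57e-12). Of 14 striated muscle markers 3 had circRNAs, namely PAX7, a transcription factor of muscle stem cells, MYPN, a sarcomeric protein, and MYBPC1, a myosin-binding protein of slow muscle. The summed junction level of these 3 genes was 989 to 1350 CPM in IMPA and 1974 to 3811 CPM in IMA. The junction reads of PAX7 overlapped between the groups, at 1033 ± 188 and 1156 ± 463 CPM (edgeR adjusted p = 0.822). Those of MYPN rose from 168 ± 31.4 to 967 ± 319 CPM (edgeR adjusted p = 0.000317). MYBPC1 had 0 junction reads in all 5 IMPA libraries and 5 to 10 in IMA. No marker of the preadipocyte and fibroblast (10 genes), endothelial (4), leukocyte (4) or neuron (4) lists had a circRNA, and since the table lists only genes with a circRNA this says nothing of their linear expression. The part of the muscle genes, or of the number or share of mapped reads, in the APP values below was not tested. In these bulk cultures fewer cells of a type and less RNA per cell cannot be told apart.

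All 4 circRNAs lay on the plus strand of chromosome 1 and were annotated to gene ID 102186997, which the RefSeq gene table names APP. The genome build is not given in the sources used here, so the positions are those of the files, counted from 1. No sequence of the circRNAs was read, and they are described by exons. circ_0000716 ran from 8771678 to 8774369, a span of 2692 bases with exons of 113 and 194 bases and a spliced length of 307. It lay apart from the others, which began 60.2 kb or more downstream of its start.

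circ_0000719 ran from 8831857 to 8859456 (27600 bases) and was listed with a first exon of 168 and a last exon of 159 bases, a spliced length of 327. circ_0000723 ran from 8847975 to 8859456 (11482 bases) and was listed with exons of 134, 75 and 159 bases, a spliced length of 368. circ_0000719 and circ_0000723 therefore shared their last exon, and the exons of 134 and 75 bases fell inside circ_0000719 without being listed for it. Such an unlisted inner exon was found for 212 of 583 exonic circRNAs (36.4%) whose gene had another circRNA.

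circ_0000720 ran from 8831857 to 8886583, the longest span at 54727 bases, and shared its first exon of 168 bases with circ_0000719. That exon was the only exon listed for it and gave its spliced length of 168, although the exon ends far from the back-splice donor. The listed exons likewise missed an end in 278 of 1274 exonic circRNAs (21.8%). The spliced length of circ_0000720 and its miRNA rate below are those of this listed exon alone.

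**Figure D1:**
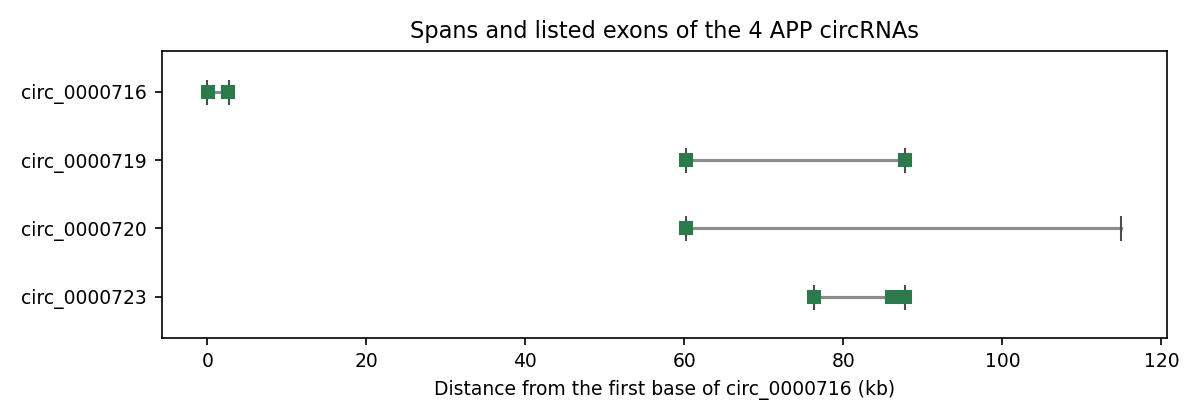
Spans of the 4 APP circRNAs along the gene, as distance in kb from the first base of circ_0000716. Grey lines run between the back-splice ends (vertical ticks), and green squares mark the listed exons and are wider than the exons themselves. The next isoform starts 60.2 kb from the start of circ_0000716, circ_0000719 and circ_0000720 share a start, circ_0000719 and circ_0000723 share an end, and no exon is listed at the downstream end of circ_0000720.

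Junction reads, those that cross the back-splice, count the circular form. circ_0000716 had 9, 10, 11, 16 and 12 junction reads in IMPA1 to IMPA5, and 11, 8, 15, 9 and 7 in IMA1 to IMA5. IMPA4 and IMA3 were high within their groups, and the groups overlapped, with 11.6 ± 2.70 reads (SD, n = 5) in IMPA and 10 ± 3.16 (n = 5) in IMA. Its log2 fold change, IMA over IMPA, after normalisation was 0.03 (SE 0.31), and turned to -0.08 without IMA3.

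circ_0000720 had 7, 3, 7, 9 and 3 junction reads in IMPA1 to IMPA5 and 8, 10, 2, 9 and 11 in IMA1 to IMA5. In 4 of 5 IMA libraries it had at least 8 reads, while IMA3 had the fewest of all libraries. The log2 fold change was 0.57 (SE 0.44). circ_0000719, which starts at the same exon, had 5, 0, 5, 4 and 6 junction reads in IMPA and 2, 13, 10, 4 and 4 in IMA. IMA2 and IMA3 were above every other library and the rest of IMA lay within the range of IMPA, with a log2 fold change of 0.72 (SE 0.55), or 0.39 without IMA2.

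circ_0000723 had 2, 4, 3, 8 and 2 junction reads in IMPA and 11, 5, 0, 3 and 3 in IMA. Its highest value was in IMA1, and its log2 fold change of 0.31 (SE 0.65) turned to -0.12 without that library. A count of 0, as for circ_0000719 in IMPA2 and circ_0000723 in IMA3, still allows up to 3 reads, and no circRNA in the table had a count of 1.

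The junction reads of the 4 isoforms summed to 23, 17, 26, 37 and 23 in IMPA1 to IMPA5 (25.2 ± 7.36) and to 32, 36, 27, 25 and 25 in IMA1 to IMA5 (29.0 ± 4.85). IMPA4 was the highest library and IMPA2 the lowest, and both belonged to IMPA. In normalised CPM the sums were 1936 ± 667 and 2663 ± 490, a log2 fold change of 0.45 (SE 0.21) and a fold of 1.36 with an approximate 95% interval of 1.03 to 1.80. This change stood at rank 106 of 922 host genes from the highest. Of the 4 isoforms 0 passed an edgeR adjusted p of 0.01, where 0.927% of the 1294 circRNAs tested did (170 at an unadjusted p under 0.05), and the groups overlapped for all 4, where 2.24% of circRNAs had every IMA library above every IMPA library and 2.16% every one below. As APP was chosen on this comparison, nothing is read from that count.

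**Figure D2:**
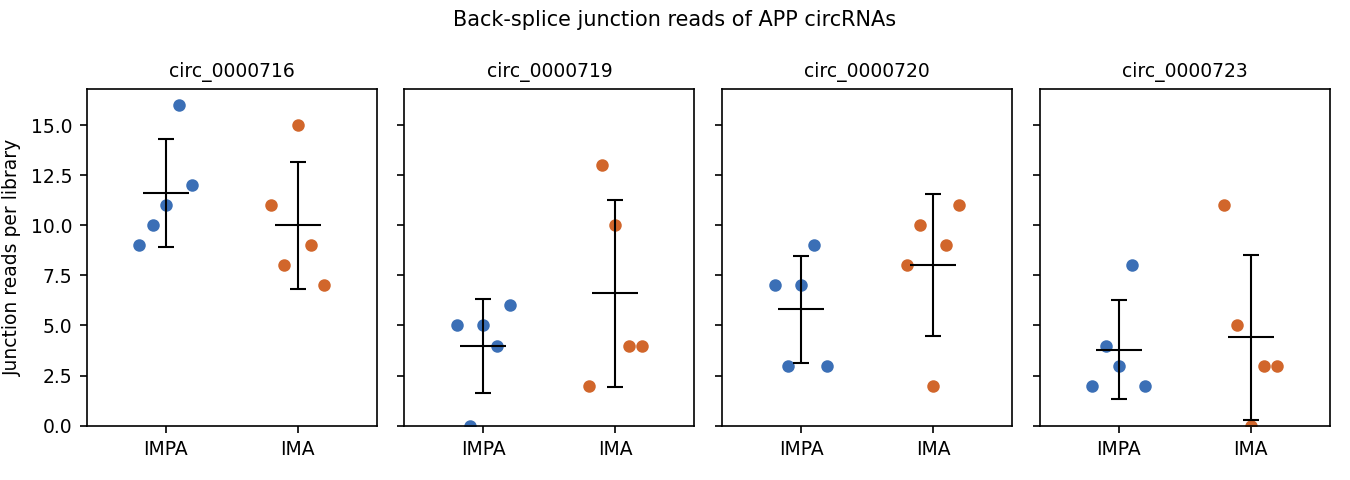
Back-splice junction reads of each APP circRNA in the 5 IMPA (blue) and 5 IMA (orange) libraries, in order of library number. Points are libraries, horizontal lines are group means and bars are 1 SD. The groups overlap for every isoform, the counts run from 0 to 16, and circ_0000716 is the highest isoform in all 5 IMPA libraries.

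By mean junction reads the isoforms stood in the same order in both groups, and single libraries of both groups departed from it. circ_0000720 was below circ_0000719 in 1 of 5 IMPA and 2 of 5 IMA libraries. circ_0000719 was below circ_0000723 in 2 of 5 IMPA libraries and 1 of 5 IMA libraries. circ_0000716 had the most APP junction reads in all 5 IMPA libraries, ahead of circ_0000720 by 5.80 ± 2.77 reads. In IMA it was alone at the top in IMA3, level with circ_0000723 in IMA1 and with circ_0000720 in IMA4, and below circ_0000719 in IMA2 and circ_0000720 in IMA5. Its lead over circ_0000720 in IMA was 2 ± 6.67 reads, less than its spread.

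Over the 10 libraries mean junction reads were 10.8 for circ_0000716, 6.90 for circ_0000720, 5.30 for circ_0000719 and 4.10 for circ_0000723. The neighbouring differences of circ_0000716 from circ_0000720 (3.9 ± 5.22), of circ_0000720 from circ_0000719 (1.6 ± 4.81) and of circ_0000719 from circ_0000723 (1.2 ± 5.71) were below their spread between libraries. The median circRNA of the table had 5.50 junction reads per library, so the APP isoforms ran from rank 289 of 1327 for circ_0000716 to rank 900 for circ_0000723.

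circ_0000716 made up 58 of 126 APP junction reads in IMPA (46.0%, 95% Wilson interval 37.6 to 54.7) and 50 of 145 in IMA (34.5%, 27.2 to 42.5). circ_0000719 held 15.9% (10.5 to 23.2) and 22.8% (16.7 to 30.2), circ_0000720 held 23.0% and 27.6%, and circ_0000723 held 15.1% and 15.2%. The intervals of each isoform overlapped between the groups. They cover counting error only, and per library the share of circ_0000716 ranged from 39.1% to 58.8% in IMPA and from 22.2% to 55.6% in IMA.

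Non-junction reads, those at the back-splice ends that continue into linear RNA, measure the linear transcript at that place. A value is given only for libraries in which the circRNA itself was called, so circ_0000719 lacked IMPA2 and circ_0000723 lacked IMA3. At circ_0000716 there were 1044, 1066, 1127, 1193 and 1278 non-junction reads in IMPA1 to IMPA5 and 1386, 1315, 1687, 1246 and 1337 in IMA1 to IMA5. Before normalisation only IMA4 lay below the highest IMPA library, although IMA libraries had fewer reads in all.

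After normalisation circ_0000716 had 4979, 5821, 5433, 5900 and 5090 CPM in IMPA and 9814, 9847, 9855, 10010 and 9761 CPM in IMA. The lowest IMA library stood well above the highest IMPA library, and the IMA libraries were close together (9857 ± 93.0 CPM, n = 5, against 5445 ± 416 CPM, n = 5). The log2 fold change was 0.86 (SE 0.06), a fold of 1.81 (approximate 95% interval 1.68 to 1.95).

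At circ_0000720 normalised non-junction reads were 7864, 8890, 8113, 8966 and 7412 CPM in IMPA and 14127, 13958, 14376, 15031 and 14821 CPM in IMA. Again all IMA libraries were above all IMPA libraries, with 8249 ± 669 and 14463 ± 454 CPM and a log2 fold change of 0.81 (SE 0.06). The isoforms with a missing library showed the same picture. circ_0000719 had 8408 ± 528 CPM in 4 IMPA libraries and 15390 ± 511 CPM in 5 IMA libraries, a limma log2 fold change of 0.87 (SE 0.06) with IMPA2 left missing. circ_0000723 had 7096 ± 583 CPM in 5 IMPA and 13311 ± 507 CPM in 4 IMA libraries, a limma log2 fold change of 0.91 (SE 0.06) with IMA3 left missing.

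Both isoforms with a value in every library passed the edgeR test as higher in IMA, where 11.6% of 690 circRNAs did, and both had groups without overlap, as 12.2% did. Nothing is read from this count, since the linear difference chose the gene, and circRNAs of the gene share linear reads. Summed over both, APP had a log2 fold change of 0.84 (SE 0.05), a fold of 1.79, and stood at rank 5 of 549 host genes from the highest. Among circRNAs circ_0000716 was at rank 4 and circ_0000720 at rank 8 of 690. With raw totals or uniquely mapped reads in place of trimmed mean of M-values (TMM) normalisation the APP value was 0.76 or 0.77.

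**Figure D3:**
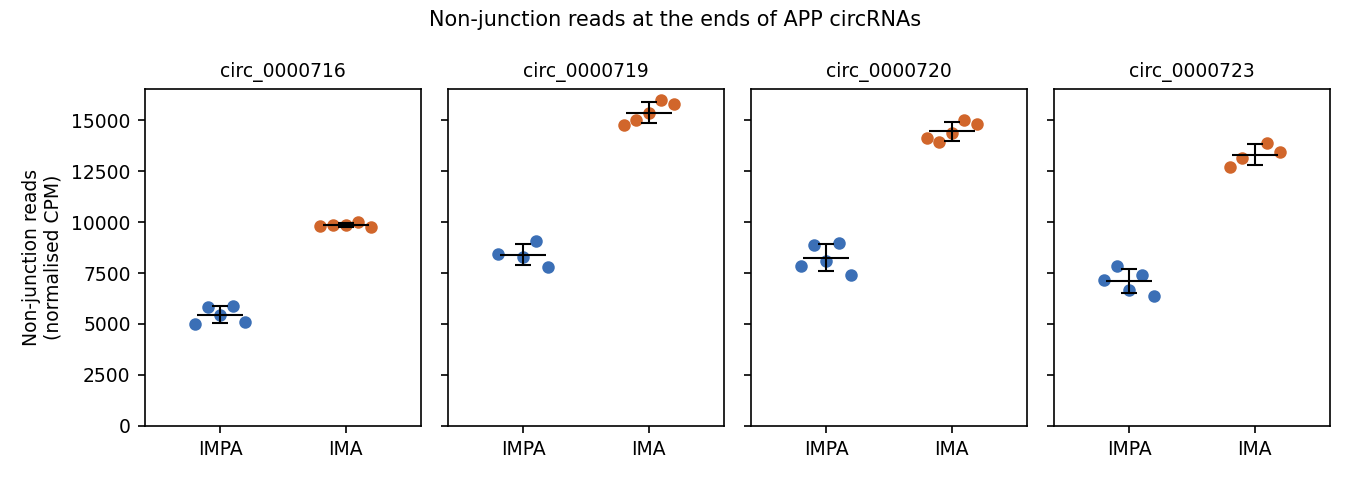
Non-junction reads at the ends of each APP circRNA, in normalised CPM, in 5 IMPA (blue) and 5 IMA (orange) libraries in order of library number, without IMPA2 for circ_0000719 and IMA3 for circ_0000723. Points are libraries, lines are means and bars are 1 SD. All IMA libraries lie above all IMPA libraries at every isoform.

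The order of the 4 ends by non-junction reads was the same wherever it could be read. circ_0000719 was above circ_0000720 in 9 of 9 libraries by 104 ± 47.5 reads, circ_0000720 above circ_0000723 in 9 of 9 by 205 ± 71.8, and circ_0000723 above circ_0000716 in 9 of 9 by 396 ± 86.1. Each difference exceeded its spread. The first of these comparisons shares reads, because both isoforms have the same start. The upstream isoform with the most junction reads thus had the fewest linear reads at its ends. Against all circRNAs the linear reads of APP were high. Mean non-junction reads were 1886 per library at circ_0000720, rank 6 of 690, and 1268 at circ_0000716, rank 20, where the median circRNA had 149.

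The circular share sets both kinds of reads against each other within a library, as 2 × junction reads over 2 × junction plus non-junction reads, and needs no library size. At circ_0000716 it was 1.69%, 1.84%, 1.91%, 2.61% and 1.84% in IMPA1 to IMPA5 and 1.56%, 1.20%, 1.75%, 1.42% and 1.04% in IMA1 to IMA5. Only IMA3 exceeded the lowest IMPA library. The mean went from 1.98 ± 0.362% to 1.39 ± 0.282%, a difference of -0.587 percentage points, and -0.429 without IMPA4. A single library is far less certain than the group, as the interval of 0.897 to 3.18% for the 9 junction reads of IMPA1 shows.

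Over the libraries with a value, the other isoforms had no lower mean share in IMA. circ_0000720 had 0.668 ± 0.302% in IMPA and 0.809 ± 0.378% in IMA, with IMA3 lowest of all at 0.162%. The difference of 0.141 percentage points was 0.303 without IMA3 and 0.0546 without IMPA5. circ_0000719 had 0.545 ± 0.0769% (n = 4) and 0.599 ± 0.432%, a difference of 0.0535 that turned to -0.117 without IMA2. circ_0000723 had 0.511 ± 0.329% and 0.612 ± 0.414% (n = 4), a difference of 0.101 that turned to -0.0994 without IMA1. The libraries without a value, IMPA2 for circ_0000719 and IMA3 for circ_0000723, had 0 junction reads, so leaving them out raised the group mean. Counted as a share of 0, IMA3 would put the mean share of circ_0000723 lower in IMA than in IMPA. All of these differences were below the spread between libraries, and whether the isoforms differed from each other in their change was not tested. Summed over circ_0000716 and circ_0000720 the APP share was 1.20 ± 0.282% in IMPA and 1.05 ± 0.135% in IMA. The difference of -0.147 percentage points was below the spread, and was -0.0367 without IMPA4 and -0.0431 over all 4 isoforms in the 8 libraries with every value.

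**Figure D4:**
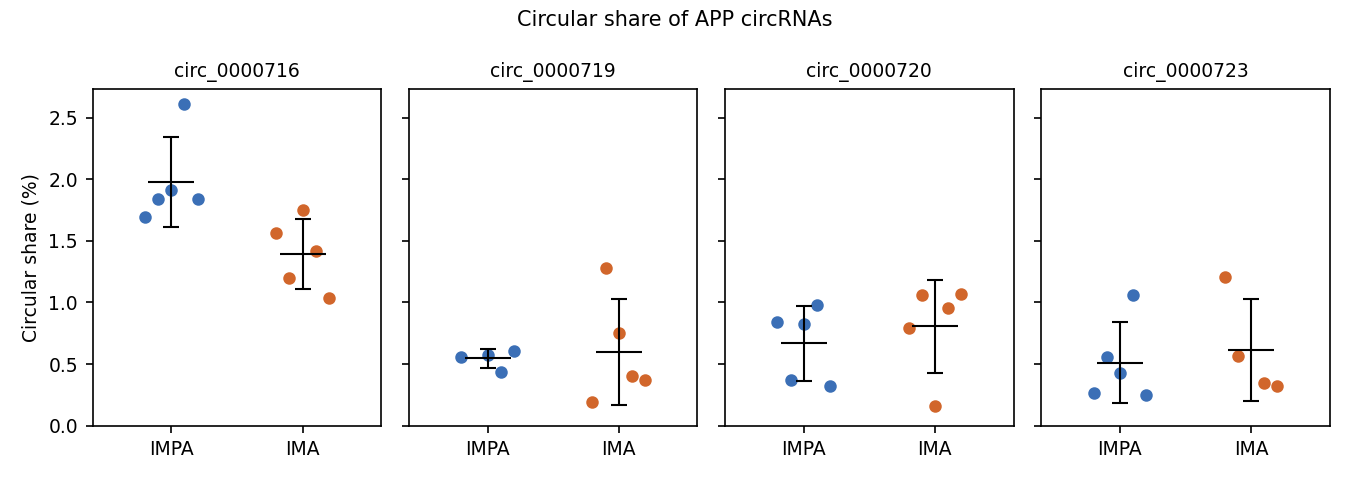
Circular share in percent, 2 × junction reads over 2 × junction plus non-junction reads, of each APP circRNA in 5 IMPA (blue) and 5 IMA (orange) libraries in order of library number, without IMPA2 for circ_0000719 and IMA3 for circ_0000723. Points are libraries, lines are means and bars are 1 SD. circ_0000716 goes from 1.98% to 1.39% with overlapping ranges, and the other isoforms lie near or under 1% in most libraries of both groups.

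APP circles were a small part of the RNA at their ends. Over the 690 circRNAs the median share was 10.4% in IMPA and 12.8% in IMA, and in IMPA circ_0000720 had the 6th lowest share and circ_0000716 the 49th lowest. The median difference, IMA minus IMPA, was 1.68 percentage points, and the median log2 ratio of shares was 0.26. The log2 ratio of circ_0000716 was -0.51, rank 28 from the lowest, and that of circ_0000720 was 0.28, rank 361. A lower mean share in IMA was seen in 26.2% of the circRNAs.

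The fold changes of both kinds of reads were also set against each other, each normalised to its own kind of reads, so that they need not follow the share, which uses the reads as counted. The linear log2 fold change exceeded the junction log2 fold change by 0.82 at circ_0000716, rank 20 of 690, and by 0.24 at circ_0000720, rank 196, against a median of -0.01. For circ_0000720 the share ratio and this difference thus point opposite ways, with the share slightly higher in IMA. These ranks place the gene among all circRNAs and are no test, since both values were used to choose it.

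**Figure D5:**
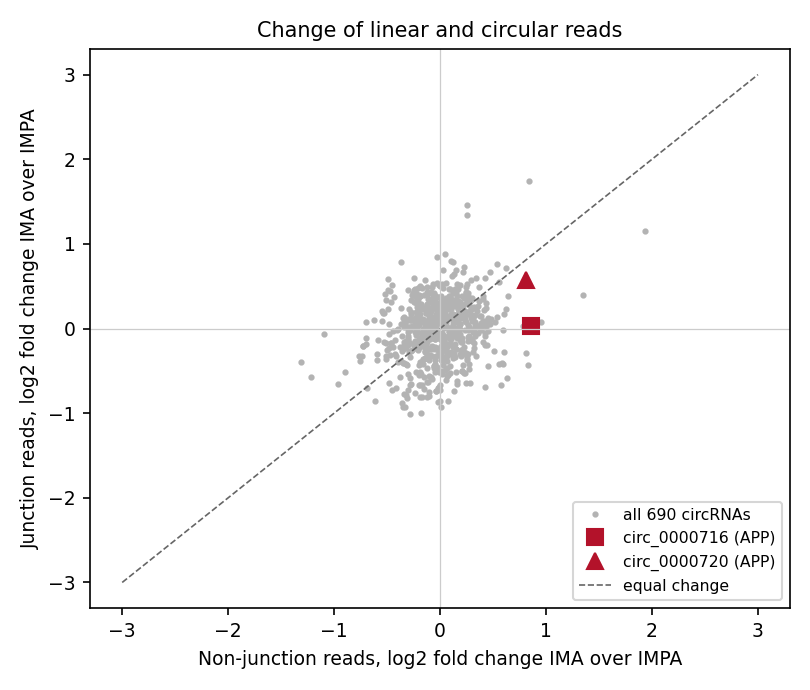
Log2 fold change of junction reads against that of non-junction reads, IMA over IMPA, from edgeR for the 690 circRNAs with values in all libraries (grey), with circ_0000716 (red square) and circ_0000720 (red triangle) of APP. The dashed line marks equal change. circ_0000716 lies at 0.86 and 0.03 and circ_0000720 at 0.81 and 0.57, both right of most circRNAs and below the line.

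Genes that act on APP protein or on circRNA formation were taken from lists of 71 genes, of which 14 had a circRNA. In junction reads 0 of these 14 passed an adjusted p of 0.01 (edgeR quasi-likelihood test with Benjamini-Hochberg adjustment), where 1.30% of the 922 host genes did. At an unadjusted p under 0.05 there were 2 of the 14, beside 148 of the 922 host genes. They were KLC1, a kinesin light chain (log2 fold change -0.64, SE 0.26, adjusted p = 0.135), and QKI, an RNA-binding protein that promotes back-splicing (0.49, SE 0.20, adjusted p = 0.172). DESeq2 also called 0. In non-junction reads 7 had values in every library, of which 1 was higher and 2 were lower, where 11.7% of 549 host genes were higher and 8.93% lower. The median log2 fold change of the lists was -0.13 in junction and 0.05 in non-junction reads, beside -0.06 and 0.00 over all host genes. No gene of the APP family list (2 genes) or of the amyloid-beta clearance list (8 genes) had a circRNA.

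Among 11 secretase genes 4 had a circRNA. Linear reads of ADAM9, a metalloprotease with alpha-secretase activity, fell from 3835 ± 137 CPM to 3076 ± 270 CPM (log2 fold change -0.31, SE 0.06, edgeR adjusted p = 0.000458). Linear reads of ADAM10, the main alpha-secretase, were at 2802 ± 200 and 2536 ± 109 CPM and their groups overlapped (log2 fold change -0.14, SE 0.07, edgeR adjusted p = 0.0924).

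Among 13 adaptor genes 3 had a circRNA. DAB2, an endocytic adaptor that binds the cytoplasmic tail of APP, fell in linear reads from 567 ± 82.6 to 338 ± 42.3 CPM (log2 fold change -0.72, SE 0.13, edgeR adjusted p = 5.39e-05). Among 23 sorting and transport genes 6 had a circRNA. PICALM, a clathrin assembly protein, rose from 2704 ± 92.4 to 3163 ± 176 CPM (log2 fold change 0.22, SE 0.06, edgeR adjusted p = 0.00664). That call was lost without TMM, with uniquely mapped reads as library sizes, and in every fit with a library left out other than those without IMPA5 or IMA3, while 2 genes of the lists were called lower in all of these fits. KIF5B, the heavy chain of kinesin-1, which carries APP vesicles, had 12457 ± 437 and 15248 ± 963 CPM and rose in limma over 9 libraries (log2 fold change 0.29, SE 0.06, adjusted p = 0.000466), a test that called 19.5% of 1183 circRNAs. RTN4, a reticulon of the endoplasmic reticulum, had 8262 ± 648 and 8880 ± 319 CPM and did not pass (edgeR adjusted p = 0.162). Linear reads of KLC1, from 1 of its 2 circRNAs, were at 3303 ± 455 and 3849 ± 294 CPM and did not pass. Their log2 fold change was 0.22 (SE 0.08, edgeR adjusted p = 0.0365), opposite in sign to its junction reads. QKI was the only circRNA biogenesis gene of 14 with a circRNA, and its linear reads had a log2 fold change of 0.05 (SE 0.06, edgeR adjusted p = 0.48).

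The host genes with a profile most like APP were sought by the root mean square difference of log2 values over the 10 libraries, each centred on its mean, among 302 host genes with enough reads. For junction reads they were ERI3 (0.21), PSD3 (0.25) and PDS5B (0.26), with a median difference of 0.50 over all. For non-junction reads they were EMC2 (0.15), MYBL1 (0.18) and LARP1B (0.18), with a median of 0.44. EMC2 was higher in IMA by 0.61 on the log2 scale where APP was higher by 0.84. For the ratio of non-junction to junction reads they were CDK8 (0.15), EHMT1 (0.20) and CEP70 (0.22), with a median of 0.48. The change of this ratio, IMA minus IMPA on the log2 scale, was 0.40, 0.07 and -0.11 for them, beside 0.18 for APP. The lists of like genes for the 3 measures had no gene in common.

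Predicted miRNA binding, which the rule did not use in choosing APP, paired the 4 circRNAs with 18 miRNAs in 29 listed pairs. The list gives names only, with neither a site position nor a score. 9 of the miRNAs were predicted for 2 isoforms and 9 for a single isoform. circ_0000716 had 3, which were chi-miR-140-3p, chi-miR-3958-5p and chi-miR-93-3p, and shared none with the other isoforms, with which it has no exon in common. This was 0.977 miRNAs per 100 spliced bases, and 3.84% of the circRNAs had a lower rate, where the median was 2.98.

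circ_0000719 had 10 miRNAs (3.06 per 100 bases) and circ_0000723 had 11 (2.99), and 6 were common to both, which is 60.0% of the first and 54.5% of the second. The 6 were chi-miR-1306-3p, chi-miR-135a, chi-miR-135b-5p, chi-miR-2290, chi-miR-380-3p and chi-miR-502b-3p. The only exon that these isoforms share is their last, of 159 bases. circ_0000720 had 3 miRNAs (1.79 per 100 bases), chi-miR-340-3p, chi-miR-382-5p and chi-miR-483, and all 3 were also predicted for circ_0000719, with which it shares its only listed exon. chi-miR-340-3p was listed for both of these isoforms also in the sequence across the back-splice. chi-miR-1306-5p was predicted for circ_0000719 only in the sequence across the back-splice, which no linear APP transcript holds.

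The rarest of the 18 in the whole list was chi-miR-374b-3p, predicted for circ_0000723 and for 1.43% of all circRNAs, and the most common was chi-miR-877-3p, also of circ_0000723, at 7.84%. The median miRNA of the list was paired with 26 circRNAs. No miRNA level was used here, so these pairs describe sequence matches as predicted.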

How the data were processed

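Total RNA libraries were sequenced on an Illumina HiSeq. The authors mapped clean reads with HISAT2 and kept circRNAs placed alike by find_circ (at least 2 reads) and CIRI2; versions are not given in the sources used here. The deposited junction values are raw counts. The deposited column headed TPM holds CPM, by its values and by the formula the authors give. These are counts scaled to a fixed sum of junction reads with no length term, and were used only as a check. Non-junction reads, deposited as lists of counts per library, were given only where a circRNA was called, so fits on them used the 690 circRNAs (52.0%) with a value in all 10 libraries in place of the filter planned. Of 1330 annotation rows 3 repeated a circRNA and were dropped, and the list entries of 10 further samples named there were not used. The authors predicted miRNA pairs (15242, of which 2237 across a back-splice) with miRanda and TargetFinder.

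Groups came from sample titles. Counts above 0 in at least 5 libraries were fitted with edgeR 4.0.16 (TMM, quasi-likelihood test, prior count 2, R 4.3.3), IMA against IMPA, per circRNA and per host gene sum, with a Benjamini-Hochberg threshold of 0.01 over all features tested. Fold changes are edgeR's, and the SE is the size of the unshrunken log2 fold change over the square root of F. limma 3.58.1 was fitted to log2 CPM with missing values left missing. Alternatives included DESeq2 1.42.0. The authors' own test, DEGseq, was not used. Wilson 95% intervals of the circular share were taken for junction reads over junction plus non-junction reads, and their limits were converted to the share. All Wilson intervals and the limit of 3 reads for a count of 0 cover counting error only. Scripts were tested on simulated data.

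The APP circRNAs and the gene lists were chosen with earlier results of these data known. Every APP circRNA is named. Of the lists, genes called at 0.01 and up to 2 others with the most non-junction reads are named, apart from KLC1, which was named after its values were seen. The 3 host genes most like APP are named for each measure, among those with at least 10 junction and 50 non-junction reads on average.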

Additional observations from a re-analysis of the deposited data

Results flagged for a closer look

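Of 36 groups of 4 or 5 libraries tested for a library far from the rest, 2 held such a library. Chance gives about 1 in 20 independent groups, and these groups shared reads. The circular share of circ_0000716 was 2.61% in IMPA4, while the other IMPA libraries had 1.69% to 1.91%. The gap was 0.76 of the group's range, where 0.71 is the critical value of Dixon's test for 5 libraries. IMPA4 had 16 junction reads of this isoform. The circular share summed over circ_0000716 and circ_0000720 was 0.813% in IMA3, while the other IMA libraries had 1.06% to 1.14% (0.74 of the range). In IMA3 circ_0000720 had 2 junction reads and circ_0000716 had 15. The cause was not tested.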

How the results depend on the processing

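The direction of the APP differences in summed junction reads, summed non-junction reads and summed circular share stayed the same in every alternative run. With a library left out the log2 fold change of APP was 0.35 to 0.65 in junction reads and 0.81 to 0.86 in non-junction reads, and the share difference -0.209 to -0.0367 percentage points. Under the other alternatives these were 0.29 to 0.67, 0.76 to 0.86 and -0.147 to -0.0431. The main junction sum was over 4 isoforms, and the main non-junction and share sums were over circ_0000716 and circ_0000720. Over those 2 isoforms the junction value was 0.29. Leaving out a library gave 7 to 12 circRNAs called in junction reads (7 without IMPA5 or without IMA1, 12 with all libraries) and 109 to 146 in non-junction reads (150 with all). In non-junction reads 246 were called at a threshold of 0.05, and 231 by limma with missing values left missing, which tested 1183 circRNAs. The limma fit, the share over 4 isoforms and the junction sum of 2 isoforms were added after seeing the data.

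Scaling moved the balance of calls: of circRNAs called in non-junction reads 80 were higher and 70 lower with TMM, 48 and 106 without it, and 49 and 93 with uniquely mapped reads as library sizes. In junction reads these were 6 and 6, 6 and 2, and 8 and 1, and with DESeq2's size factors 6 and 4. The DESeq2 Wald test, which changes the test too, gave 3 and 10. Uniquely mapped reads put the median log2 fold change of all host genes in junction reads at 0.14, beside which the APP value was 0.67.

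With the replicate number as a block, 11 circRNAs were called in junction and 173 in non-junction reads. APP had 0.45 in junction reads over 4 isoforms. Over circ_0000716 and circ_0000720 it had 0.84 in non-junction reads and a share difference of -0.147. Libraries of the same number did not deviate together (r from -0.0772 to 0.0691), and the block stayed an alternative. The alternative without a filter was not run on non-junction reads, which are missing where a circRNA was not called. Junction counts of 0 to 16 per isoform limit what can be seen: intervals of the isoforms' junction folds run from 0.51 to 3.48.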
